A study of Zea mays with 12 samples.

Results

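Nine-cis-epoxycarotenoid dioxygenase 9 (NCED9, Zm00001d033222) and zeaxanthin epoxidase (ZEP, Zm00001d003512) are maize genes whose names place them on the route to abscisic acid (ABA). Both were picked by their gene identifiers, 2 of 42976 features in the table of read counts, and both were among the 26746 features abundant enough to be tested. They carry these descriptions in the study because their transcripts differed between water-stressed and well-watered roots at 48 h, in comparison with both well-watered controls. The 48 h comparisons are therefore described below without a test, and tests are given for 24 h and for the comparisons between times. The well-watered 24 h libraries served in the study's choice as well, and the stressed 24 h libraries did not. The 2 genes were taken up here with earlier results of these data known, so the 24 h test is not independent. Of the comparisons between times, WS48 against WS24 shares the WS48 libraries with the study's choice. WW48 against WW24 uses only libraries that entered it, so the p-values of both are not independent of it.

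RNA came from primary root tips of maize (Zea mays) inbred line FR697, whose seedlings were kept in vermiculite in darkness at 29 °C. Tips of several seedlings were combined in each sample. The 4 groups were water-stressed tips at 24 h (WS24), well-watered tips at 24 h (WW24), water-stressed tips at 48 h (WS48) and well-watered tips at 48 h (WW48) after transplanting, with 3 libraries in each. Water-stressed vermiculite was at −1.6 MPa and well-watered vermiculite at −0.02 MPa. The excised tip was meant to hold the whole elongation zone and was 7 mm long under stress and 12 mm long when well watered, so treatment and segment length cannot be told apart. The WW24 roots were about as long as the WS48 roots, and the study had no well-watered control matched in length to WS24.

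Zeaxanthin epoxidase works in plastids, where it converts the carotenoid zeaxanthin to violaxanthin by way of antheraxanthin. NCED enzymes then cleave 9-cis-epoxycarotenoids made from violaxanthin to xanthoxin, which leaves the plastid and is oxidized to ABA. The cleavage is regarded as the rate-limiting step of ABA synthesis under drought. ABA accumulates in the growing zone of maize primary roots at low water potential and helps to maintain their elongation.

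Each library held 40005384 to 54863708 counts assigned to features. Abundances are given as CPM, in which the counts of a feature are set relative to its library's total, after scaling of the libraries by TMM, and fold changes as log2 values of the edgeR fit with their standard error (SE). A feature was called changed where the Benjamini-Hochberg adjusted p of edgeR's quasi-likelihood F-test over all 26746 features was at most 0.05 and the log2 change was at least 1 in size. Unaligned reads made up 12.7 to 23.1% of all reads counted for a library, assigned or not, and the highest share was in WS24 replicate 3. Without that library the log2 change in WS24 against WW24 was 3.76 for NCED9 and 1.83 for ZEP. By the study's account, the 3 replicate samples of a group came from separate experiments.

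Transcripts of NCED9 were far more abundant in water-stressed than in well-watered root tips at 24 h. The 3 WS24 libraries held 648, 668 and 636 NCED9 counts, which is 14.3, 14.2 and 15.6 CPM. The 3 WW24 libraries held 50, 41 and 46 NCED9 counts, which is 1.06, 1.04 and 1.05 CPM. The groups did not overlap, and within each the libraries lay close together. NCED9 averaged 14.7 ± 0.759 CPM in WS24 and 1.05 ± 0.0131 CPM in WW24 (SD, n = 3 each). The SD of the WW24 libraries was 1.24% of their mean, less than the 14.8% that counting error alone gives at these counts. NCED9 increased 13.9-fold in WS24 against WW24 (log2 change 3.80, SE 0.28, edgeR adjusted p = 4.86e-07), which ranked 449 from the top among the features tested.

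ZEP transcripts also increased, by a smaller factor. ZEP was at 20.7, 17.5 and 17.5 CPM in the 3 WS24 libraries (937, 825 and 715 counts), and at 5.98, 4.91 and 5.27 CPM in the 3 WW24 libraries (281, 194 and 230 counts). The lowest WS24 library was well above the highest WW24 library. ZEP averaged 18.6 ± 1.86 CPM in WS24 and 5.39 ± 0.544 CPM in WW24 (SD, n = 3 each), a 3.44-fold increase (log2 change 1.78, SE 0.13, edgeR adjusted p = 5.60e-07) that ranked 1431 from the top. Of all features tested, 9.27% were called higher in WS24 than in WW24 and 5.64% lower, and 27.8% had their 3 WS24 libraries above all 3 WW24 libraries. In these bulk samples, a different share of cells that express a gene and a different amount of its RNA per cell cannot be told apart.

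**Figure D1:**
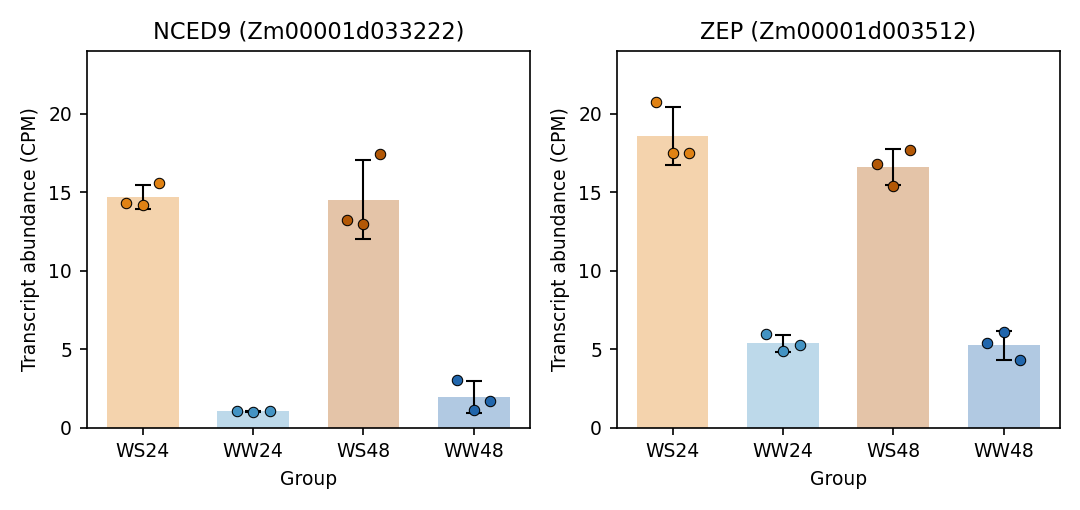
Transcript abundance of NCED9 (left) and ZEP (right) in CPM, on the vertical axis, by group. Points are libraries (replicates 1 to 3 from left to right), bars are means and error lines are ± SD (n = 3). NCED9 was between 12.9 and 17.4 CPM in the 6 water-stressed libraries and between 1.04 and 3.07 CPM in the 6 well-watered libraries.

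Under continued stress, neither transcript differed beyond its spread between the times. NCED9 was at 13.2, 12.9 and 17.4 CPM in the 3 WS48 libraries (577, 609 and 841 counts), a range that spans the WS24 values. Replicate 3 was the highest of the WS48 libraries. NCED9 averaged 14.5 ± 2.49 CPM in WS48 and 14.7 ± 0.759 CPM in WS24, with a log2 change of −0.015 (SE 0.23, approximate 95% interval −0.55 to 0.52, edgeR adjusted p = 0.989). ZEP was at 16.8, 15.4 and 17.7 CPM in the 3 WS48 libraries (733, 724 and 854 counts). It averaged 16.6 ± 1.15 CPM in WS48 and 18.6 ± 1.86 CPM in WS24, with a log2 change of −0.16 (SE 0.13, approximate 95% interval −0.45 to 0.13, edgeR adjusted p = 0.632). Both intervals exclude a change of 1 on the log2 scale in either direction, the size a call required. In this comparison 0.34% of all features were called higher in WS48 and 0.568% lower.

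In well-watered tips, the times differed for NCED9 in their values but not by the criteria of a call. NCED9 was at 3.07, 1.13 and 1.70 CPM in the 3 WW48 libraries (159, 47 and 73 counts), each above the highest WW24 value of 1.06 CPM. WW48 replicate 1 stood apart, at 2.17 times the mean of the other 2 WW48 libraries, while WW48 replicate 2 was close to the WW24 libraries. The SD of the 3 was 50.7% of their mean, against 10.4% from counting error alone. NCED9 averaged 1.97 ± 0.996 CPM in WW48 and 1.05 ± 0.0131 CPM in WW24, with a log2 change of 0.92 (SE 0.29, approximate 95% interval 0.25 to 1.58, edgeR adjusted p = 0.120). The log2 change was 0.43 without WW48 replicate 1 (edgeR adjusted p = 0.421), whereas without WW48 replicate 2 it was 1.19 (edgeR adjusted p = 0.0337), which would be called. Over all features, 0.789% were called higher in WW48 than in WW24, and 10.7% had WW48 libraries that all lay above the WW24 libraries.

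ZEP was spread less widely than NCED9 in the WW48 libraries. It was at 5.38, 6.12 and 4.29 CPM in the 3 WW48 libraries (279, 255 and 184 counts), which overlapped the WW24 values. The SD of the 3 was 17.6% of their mean, against 6.46% from counting error alone. ZEP averaged 5.26 ± 0.924 CPM in WW48 and 5.39 ± 0.544 CPM in WW24, with a log2 change of −0.035 (SE 0.14, approximate 95% interval −0.35 to 0.28, edgeR adjusted p = 0.938). WW48 replicate 1, the highest of its group for NCED9, was the middle one of its group for ZEP.

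The 48 h comparisons chose these genes, and their values are given as a description. NCED9 was 7.30-fold higher in WS48 than in WW48 (log2 change 2.87, SE 0.26) and 13.8-fold higher than in WW24 (log2 change 3.78, SE 0.28). The comparisons of WS24 and of WS48 with WW24 share the 3 WW24 libraries. The ratio of mean CPM in WS48 to that in WW48 was 7.39 with all libraries and 10.3 without WW48 replicate 1. ZEP was 3.16-fold higher in WS48 than in WW48 (log2 change 1.66, SE 0.13) and 3.08-fold higher than in WW24 (log2 change 1.62, SE 0.13). For ZEP the choice of well-watered control thus made little difference, whereas for NCED9 the change against the older control was smaller. The share of features called higher was 7.2% in WS48 against WW48 and 7.84% in WS48 against WW24, and nothing is read from it here because the genes were chosen on these comparisons.

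The change under stress at 48 h minus that at 24 h, each against the well-watered group of the same age, was −0.93 on the log2 scale for NCED9 (SE 0.37) and −0.12 for ZEP (SE 0.19). The NCED9 value was −0.44 without WW48 replicate 1. Between the times, log2 levels of NCED9 differed by −0.015 in stressed tips and by 0.92 in well-watered tips. Ordered by mean abundance, NCED9 was highest in WS24, followed by WS48, WW48 and WW24, and neither WS24 and WS48 nor WW48 and WW24 differed by the criteria of a call. ZEP was highest in WS24, followed by WS48, WW24 and WW48, with the same result for its neighbouring groups. For both genes all 6 water-stressed libraries were above all 6 well-watered ones, which held for 15.9% of the features tested.

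**Figure D2:**
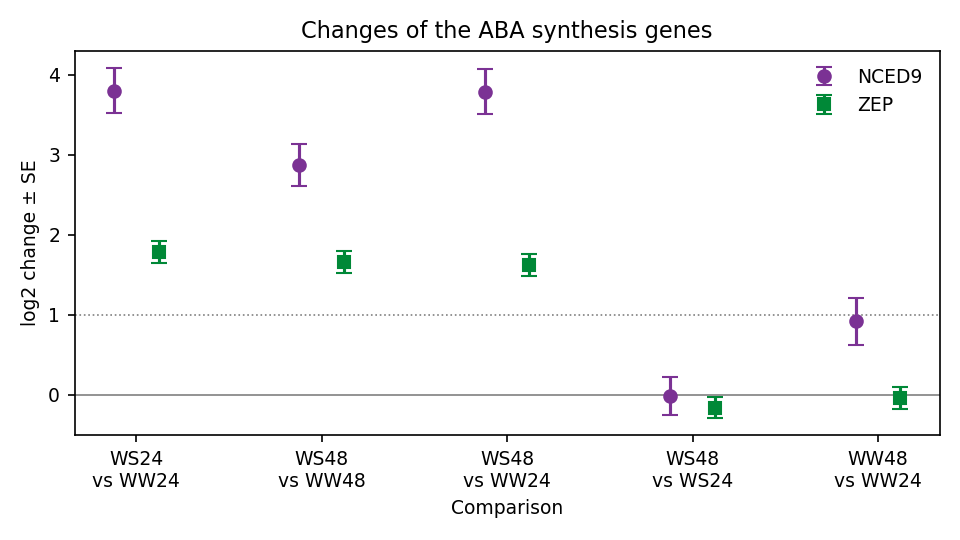
Log2 change ± SE (vertical axis) of NCED9 (circles) and ZEP (squares) in 5 comparisons, from 1 edgeR fit of 12 libraries, with a dotted line at the log2 change of 1 that a call required. NCED9 was at 3.80 and 3.78 against WW24 and at 2.87 against WW48, while ZEP was between 1.62 and 1.78 in the 3 comparisons of stressed with well-watered tips.

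The ratio of NCED9 counts to ZEP counts within a library does not depend on how libraries are scaled to each other. Because the genes' lengths do not enter it, the ratio describes their unequal change and not how many transcripts of each there were. NCED9 had 0.692, 0.810 and 0.890 counts per ZEP count in the 3 WS24 libraries, and 0.178, 0.211 and 0.200 in the 3 WW24 libraries. The log2 ratio averaged −0.34 ± 0.18 in WS24 and −2.35 ± 0.13 in WW24 (SD, n = 3 each), a 4.05-fold higher ratio under stress (log2 difference 2.02). The groups did not overlap, and the two-sided exact permutation p was 0.1, the smallest that 3 libraries against 3 can give. NCED9 therefore increased by more than ZEP in every pairing of a WS24 with a WW24 library.

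At 48 h, NCED9 had 0.787, 0.841 and 0.985 counts per ZEP count in the 3 WS48 libraries, and 0.570, 0.184 and 0.397 in the 3 WW48 libraries. The log2 ratio averaged −0.21 ± 0.17 in WS48 and −1.53 ± 0.83 in WW48, a 2.50-fold higher ratio, given without a test. The WW48 ratios were spread more widely than those of the other groups, with replicate 1 nearest to the stressed libraries. Over the 12 libraries, log2 CPM of NCED9 and ZEP had a Pearson correlation of 0.95. The 12 points form a stressed and a well-watered cluster, and once each library's group mean was subtracted the correlation was −0.11, with deviations of the same sign in 7 of 12 libraries. The correlation over all libraries was thus one between groups, and is given only as a description.

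**Figure D3:**
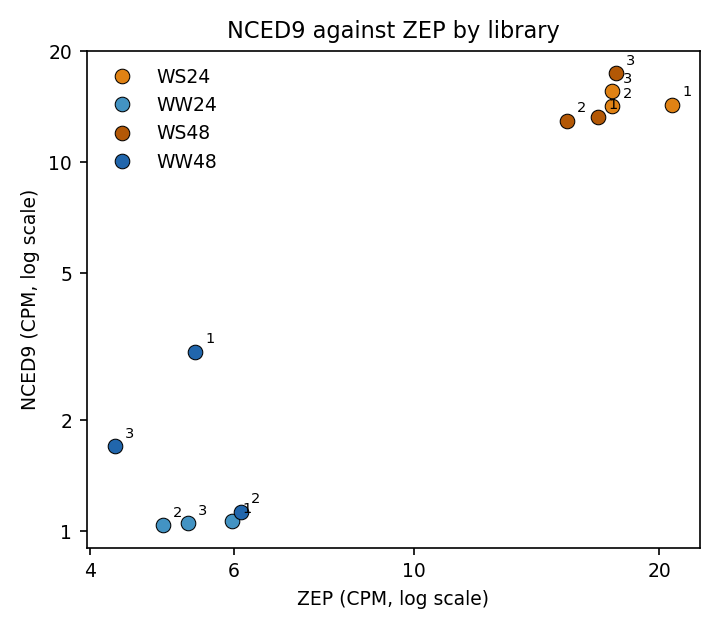
NCED9 (vertical axis) against ZEP (horizontal axis) in CPM, both on log scales, with 1 point per library, coloured by group and numbered by replicate. The 6 water-stressed libraries lie together at the upper right, and among the well-watered libraries WW48 replicate 1 is the highest in NCED9, at 3.07 CPM, with ZEP at 5.38 CPM.

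The study's descriptions name 9 genes listed here for carotenoid and ABA synthesis or for isoprenoid branches near this route, NCED9 and ZEP included. They carry names because they changed at 48 h, so the list lacks any gene of the route that did not change, and its count is not independent evidence of a direction. In WS24 against WW24, 6 of the 9 were called higher and 3 lower, where 14.9% of all features were called in either direction. The median log2 change of the list was 1.39, against 0.012 over all features. Among the 7 other genes, 4 were higher and 3 lower, with a median of 1.15.

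Upstream of ZEP, transcripts for an enzyme at the start of the plastid isoprenoid route were lower under stress. Those for the later steps of geranylgeranyl pyrophosphate and phytoene synthesis were higher. Transcripts of 1-deoxy-D-xylulose 5-phosphate synthase 3 (DXS3, Zm00001d045383), whose enzyme family opens the plastid route to isoprenoids, averaged 10.6 ± 1.22 CPM in WS24 and 27.7 ± 3.33 CPM in WW24 (log2 change −1.38, SE 0.11, edgeR adjusted p = 1.18e-06). Geranylgeranyl pyrophosphate synthase 1 (GGPS1, Zm00001d021929), which makes the precursor of carotenoids, averaged 4.52 ± 0.517 CPM in WS24 and 1.72 ± 1.12 CPM in WW24 (log2 change 1.39, SE 0.37, edgeR adjusted p = 0.00857). Its WW24 libraries were uneven, with replicate 3 at 3.00 CPM and the others at 1.21 and 0.937 CPM.

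Phytoene synthase (PSY, Zm00001d021410), which commits the precursor to carotenoids, changed with the smallest error of the list. It averaged 34.7 ± 2.66 CPM in WS24 and 8.23 ± 0.327 CPM in WW24 (log2 change 2.07, SE 0.08, edgeR adjusted p = 1.63e-09). The PSY change was thus larger than that of ZEP and smaller than that of NCED9 as a value, without a test of the differences. The gene described as phytoene desaturation 1 (PDS1, Zm00001d015356) was at 76.1, 72.1 and 70.7 CPM in the 3 WS24 libraries and at 34.9, 29.0 and 34.8 CPM in the 3 WW24 libraries (log2 change 1.15, SE 0.09, edgeR adjusted p = 8.45e-07). In Arabidopsis, the locus of that name encodes an enzyme of plastoquinone synthesis, and plastoquinone is what phytoene desaturase needs to work. PDS1 may therefore not be a step of the carotenoid route itself, although the list counts it there.

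Farnesyl diphosphate synthase 1 (FPS1, Zm00001d011673), listed with the branches, had the largest change on the list. Its enzyme makes the precursor of sterols and sesquiterpenes outside the plastid, so FPS1 is not a branch of the plastid route itself. The 3 WS24 libraries held 2190, 1424 and 1672 FPS1 counts and the 3 WW24 libraries 27, 51 and 44 (log2 change 5.39, SE 0.26, edgeR adjusted p = 1.21e-08).

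The other genes listed as branches belong to strigolactone synthesis, which also starts from carotenoids, and both were lower under stress. Carotenoid cleavage dioxygenase 7 (CCD7, Zm00001d002736), which like NCED enzymes cuts carotenoids but feeds strigolactones, had 6, 7 and 2 counts in the 3 WS24 libraries and 105, 82 and 114 in the 3 WW24 libraries (log2 change −4.33, SE 0.72, edgeR adjusted p = 3.68e-04). The cytochrome P450 gene CYP711A1 (Zm00001d039697), whose counterpart in Arabidopsis acts later in strigolactone synthesis, was at 8.89, 9.91 and 11.3 CPM in the 3 WS24 libraries and at 17.4, 25.1 and 23.0 CPM in the 3 WW24 libraries (log2 change −1.12, SE 0.21, edgeR adjusted p = 9.12e-04). The 2 carotenoid cleavage dioxygenases, NCED9 and CCD7, thus changed in opposite directions at 24 h. Of these genes, 3 (GGPS1, PDS1 and CYP711A1) were no longer called when the test itself was set against a log2 change of 1, and CYP711A1 was also lost without scaling of the libraries (log2 change −0.98).

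At 48 h all 7 other genes had changes of the same sign as at 24 h, which the choice of the genes makes likely and which is given without a test. The log2 changes in WS48 against WW48 were −1.02 for DXS3, 1.28 for GGPS1, 1.93 for PSY and 1.32 for PDS1. For the genes listed as branches they were 6.04 for FPS1, −3.33 for CCD7 and −2.25 for CYP711A1. CCD7 had 6, 11 and 66 counts in the 3 WS48 libraries, against 413, 186 and 225 in the 3 WW48 libraries, so that WS48 replicate 3 stood apart from the others of its group. WS48 replicate 3 was also the highest of its group for NCED9.

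**Figure D4:**
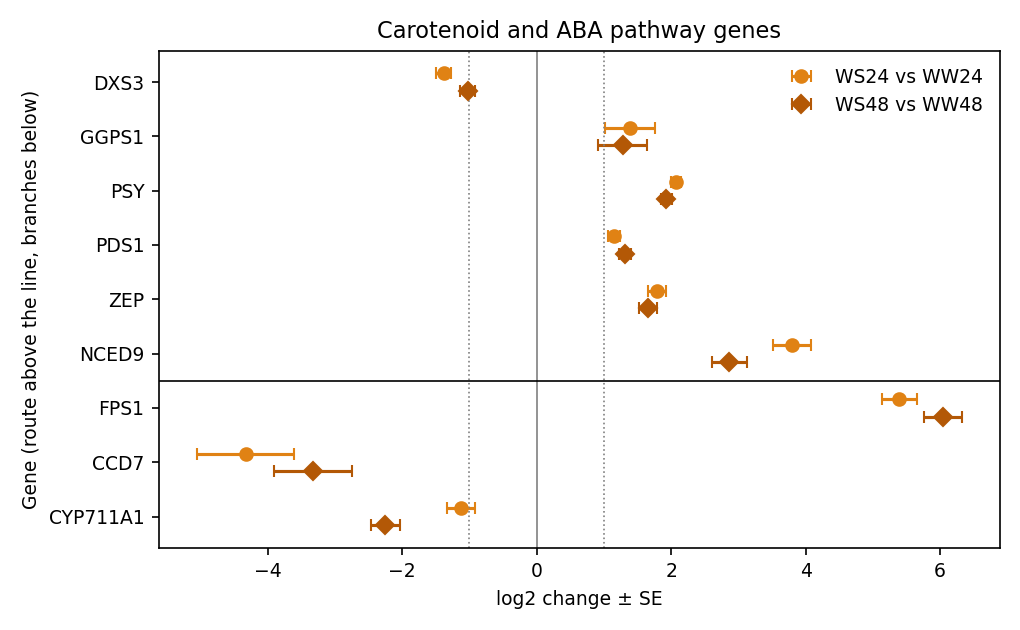
Log2 change ± SE (horizontal axis) of the 9 described genes in WS24 against WW24 (circles) and WS48 against WW48 (diamonds). Dotted lines mark log2 changes of 1 and −1. Genes above the solid line are listed on the route to ABA and those below it as branches. PDS1 and FPS1 are placed by name only. At 24 h the values run from −1.38 for DXS3 to 3.80 for NCED9 above the line, and from −4.33 for CCD7 to 5.39 for FPS1 below it.

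Between times, edgeR called 0 of the 9 genes in WS48 against WS24, where 2 (DXS3 and CCD7) had an unadjusted p under 0.05 and DESeq2 called 1 (CCD7). In WW48 against WW24 edgeR and DESeq2 both called 0 of the 9, with 5 at an unadjusted edgeR p under 0.05, among them NCED9. Of all features, 0.909% were called in the stressed tips and 0.98% in the well-watered ones. The share of all features at an unadjusted p under 0.05 is not given, so nothing is read from the counts at that threshold. For NCED9 in WW48 against WW24, DESeq2 gave a log2 change of 0.91 with an adjusted p of 0.0264, past the p threshold but under the required change of 1.

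For ABA signalling and response, 20 described genes were listed, which were also named for their change at 48 h. They comprised phosphatases of type 2C that restrain the pathway, ABF2 transcription factors, a receptor, a kinase and 2 ABA-responsive genes. The kinase was placed by its description only, and its part in ABA signalling was not tested. Most maize transcripts chosen at 48 h responded similarly at 24 h by the study's account. The count of these 20 genes is therefore not independent evidence of a direction. In WS24 against WW24, 17 of them were called higher, 2 lower (the receptor PYL2, Zm00001d016294, with a log2 change of −1.13, and a GRAM domain gene, Zm00001d025901, with −1.78) and 1 was not called (the kinase SnRK2.10, Zm00001d016783, with −0.79), where 9.27% of all features were called higher and 5.64% lower. The median log2 change of the 20 was 2.34, against 0.012 over all features. The PYL2 call was lost without scaling of the libraries (log2 change −0.99), without WW24 replicate 2 (−0.86), without WS24 replicate 1 (−0.89) and when the test itself was set against a log2 change of 1. In WS48 against WS24, edgeR and DESeq2 both called 0 of the 20, with a median log2 change of −0.47, against 2.3e-04 over all features. Of the 20, 15 had an unadjusted edgeR p under 0.05. Nothing is read from that count, because the share of all features under that threshold is not given. In WW48 against WW24 edgeR called 1 of the 20 higher (a highly ABA-induced phosphatase gene, Zm00001d028574, with a log2 change of 1.33).

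The genes whose profile was most like that of NCED9 were sought by Pearson correlation of log2 CPM over the 12 libraries, among 17514 features with an average log2 CPM of at least 2, of which 1063 had a description. The 5 described genes nearest to NCED9 were an MLP-like protein (Zm00001d019895, r = 0.992), senescence-associated gene 21 (Zm00001d040659, r = 0.989), an invertase and pectin methylesterase inhibitor (Zm00001d016740, r = 0.989), general regulatory factor 9 (Zm00001d048868, r = 0.988) and heat shock transcription factor C1 (Zm00001d046299, r = 0.988). The gene of the MLP-like protein (Zm00001d019895), for example, averaged 64.6 ± 4.47 CPM in WS24, 22.8 ± 1.60 CPM in WW24, 67.6 ± 4.12 CPM in WS48 and 30.6 ± 7.63 CPM in WW48, with WW48 again the more variable of the well-watered groups. ZEP stood at rank 442 in the order of likeness to NCED9.

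For ZEP the 5 nearest described genes were a dormancy/auxin associated family protein (Zm00001d020607, r = 0.995), a low temperature and salt responsive protein (Zm00001d028718, r = 0.995), the GTP-binding protein Root hair defective 3 (Zm00001d052961, r = 0.994), VIRB2-interacting protein 2 (Zm00001d037453, r = 0.994) and an integral membrane protein (Zm00001d011193, r = 0.993). The dormancy/auxin associated gene averaged 20.9 ± 2.77 CPM in WS24, 2.75 ± 0.531 CPM in WW24, 17.3 ± 2.43 CPM in WS48 and 2.44 ± 1.08 CPM in WW48, the same order of groups as ZEP. NCED9 stood at rank 654 in the order of likeness to ZEP. All of these correlations follow the split between stressed and well-watered libraries and are descriptions.

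Markers of the growing zone were present in every group. The summed abundance of 15 described expansins, wall-loosening proteins of elongating cells, was 888 to 1227 CPM in WS24 libraries, 263 to 333 CPM in WW24, 729 to 790 CPM in WS48 and 247 to 292 CPM in WW48. As markers of dividing cells, 4 genes were taken by their descriptions (2 D-type cyclins, a histone H2AX and a histone H1). They summed to 118 to 135 CPM in WS24, 56.8 to 66.3 CPM in WW24, 103 CPM in WS48 and 59.1 to 74.2 CPM in WW48. The sum does not show the part of each gene. Whether it follows cell division or a stress response of single genes was not tested. All the expansins and these 4 genes had counts, and both sums were higher in stressed tips, as were NCED9 and ZEP. The part of cell composition in the changes of NCED9 and ZEP was not tested, and these markers too had been described for their change at 48 h. The 2 nuclear genes of green tissue summed to 0.730 to 1.23 CPM in WS24, 3.92 to 8.36 CPM in WW24, at most 1.11 CPM in WS48 and 3.05 to 7.59 CPM in WW48, which is the opposite direction to NCED9 and ZEP.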

How the data were processed

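RNA from 12 pooled root tip samples was sequenced from strand-specific libraries. Group and replicate of each sample were read from its title. The authors deposited raw read counts per feature, aligned with HISAT2 (1.0) and counted with HTSeq (0.6.1). The submitters' notes name B73 RefGen_v4 as the build, and the study adds an FR697 assembly. Strand setting and handling of near-identical genes in the counting were not given in the sources used here. Reads shared between relatives of NCED9 or ZEP are uncertain. The authors' normalized values, deposited as rounded whole numbers and treated as a score, were not used. Rows that are no feature stayed out of all sums: 12.7 to 23.1% unaligned, 1.87 to 2.25% without feature, 0.942 to 1.08% ambiguous and 3.20 to 3.70% of low quality.

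Counts were filtered by filterByExpr (minimum count 10), scaled by TMM (factors 0.926 to 1.06) and fitted with edgeR 4.0.16 in R 4.3.3, with 1 mean per group over all 12 libraries. SE and 95% intervals were derived from the F statistic with 8 degrees of freedom and are approximate. The biological coefficient of variation was 15.9%. No 2 replicates agreed within sampling noise (mean chi-square per gene 2.72 to 4.42). On data simulated for WS24 against WW24 (26373 genes), changes of 1, 1.5, 2 and 3 on the log2 scale were recovered in 48, 94, 100 and 100% of genes. Changes were given only to features above a minimum average count. A change of 1 lies on the threshold of a call, so the 48% says little about power. Alternatives were DESeq2 1.42.0, other scaling and filters, glmTreat, fits of the compared groups only, a replicate block and leaving out each library.

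The genes named are NCED9, ZEP, the other 7 described pathway genes and, for each of NCED9 and ZEP, the 5 described features of most similar profile, where descriptions are those of the study's supplement (names only, 1581 genes). Members and lists were chosen with earlier results of these data known. Expansins and the other markers were taken by their descriptions. The plastid genes psbA and rbcL had 0 counts, but all 110 plastid rows together held 778 counts, so they carry no information in these libraries. Of 49888 RefSeq rows, 0 could be matched to NCED9 or ZEP, and neither sequences nor positions are given.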

Additional observations from a re-analysis of the deposited data

How the results depend on the processing

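The 24 h increase was called for both genes under each alternative tried, with log2 changes of 3.76 to 3.94 for NCED9 and 1.70 to 1.92 for ZEP and adjusted p of at most 8.50e-06 and 1.94e-04. Without scaling factors the median of all features shifted by 0.14 in WS24 against WW24, and ZEP in WS48 against WW24 was 1.76. The count of features higher in WS24 was 2480, against 1578 with only features over 3 CPM (20311 tested) and 1224 with glmTreat, and that of lower ones was 1508, against 640 with glmTreat. Of the 9 pathway genes, 8 were called without scaling and 6 with glmTreat, and of 20 signalling genes, 18 to 19. Leaving out 1 library gave NCED9 in WW48 against WW24 a range of 0.43 to 1.19 and in WS48 against WS24 of −0.18 to 0.062, where the sign turned to 0.021 without WS24 replicate 3, 0.048 without WS48 replicate 1 and 0.062 without WS48 replicate 2. ZEP in WW48 against WW24 ranged from −0.15 to 0.093, with 0.049 without WW24 replicate 1 and 0.093 without WW48 replicate 3. The difference between times of the NCED9 stress change ranged from −1.20 to −0.44. By Spearman correlation, 1 of the 5 features nearest to NCED9 and 2 of the 5 nearest to ZEP were the same as by Pearson correlation.

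Samples of the same replicate number did not deviate together (correlations −0.475 to 0.0778 over 15 same-numbered pairs of libraries from 5 pairs of groups, 0 above 0.1), so the numbers were taken as names. With a replicate block, 2420 features were higher and 1460 lower in WS24, the log2 change in WS24 against WW24 was 3.81 for NCED9 (edgeR adjusted p = 2.62e-06) and 1.78 for ZEP (3.91e-06), and the log2 ratio of NCED9 to ZEP differed by 2.02 (exact permutation p = 0.25, the smallest that 3 pairs allow).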

Other observations

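WW48 replicate 1, looked at after its NCED9 value was seen, was the highest of the 3 WW48 libraries for 5 of the 9 pathway genes, NCED9 itself among them, and for 11 of the 20 ABA signalling genes (55%), against 37.4% of all features tested. It was the lowest for 1 of the 9 and 3 of the 20, against 31.8% of all features. Its median log2 difference from the mean of the other WW48 libraries was 0.058 for the pathway genes and 0.19 for the signalling genes. Over all features it was 0.0080, and none of this was tested. Among the strigolactone genes, CCD7 was at 7.97 CPM in WW48 replicate 1, against 4.47 and 5.24 CPM in the other WW48 libraries, and CYP711A1 was at 43.8 CPM, against 31.5 and 30.5 CPM. Under stress both CCD7 and CYP711A1 were highest in replicate 3 at 48 h, with CCD7 at 1.37 CPM and CYP711A1 at 10.1 CPM, against 0.138 and 0.234 CPM and 6.31 and 5.83 CPM in replicates 1 and 2.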
